A study of Drosophila melanogaster with 12 samples.

Results

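The steroid hormone ecdysone times the end of larval life in *Drosophila melanogaster*, and 7 genes of its receptor and early response were followed here through larval brain RNA. They were taken by gene identifier from a table of 17807 genes: *EcR* (FBgn0000546) and *usp* (FBgn0003964), which encode the receptor, the early genes *Eip74EF* (FBgn0000567) and *Eip75B* (FBgn0000568), the genes *Hr3* (FBgn0000448) and *Eip78C* (FBgn0004865), which respond slightly later, and *ftz-f1* (FBgn0001078). Brain lobes of L3 larvae, the last larval stage, grown at 25 °C were dissected from 3 genotypes. Wildtype (Oregon_R in the labels, Oregon-R-P2 in the methods) brains gave neuron-biased RNA. Neuroblast-biased brains (insc_aPKC_CAAX) carried *insc-Gal4*, which drove *UAS-aPKC CAAX*, a membrane-targeted form of atypical protein kinase C, in neuroblasts, which are neural stem cells. *Mettl3* null brains lacked the enzyme that methylates adenosine in mRNA to N6-methyladenosine (m6A). Each genotype was sequenced as input RNA and as RNA recovered with an antibody against m6A (meRIP), with 2 libraries of each kind and 12 in all. Neuroblast-biased brains still contain neurons, and wildtype brains contain neuroblasts and glia, so the genotypes differ in the mixture of cells as well as in genotype. According to the paper, wildtype and neuroblast-biased brains were collected in one window of hours after hatching, and *Mettl3* null brains were matched by stage. How many brains were pooled in a library and which part of *Mettl3* the null allele removes are not given in the sources used here.

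Ecdysone acts through a heterodimer of EcR, a nuclear receptor, and Usp, the fly counterpart of the vertebrate retinoid X receptors. The bound receptor switches on early genes that encode transcription factors, and these pass the signal on to later tissue-specific genes. Eip74EF is an ETS-domain factor, Eip75B and Eip78C are nuclear receptors related to vertebrate Rev-erb proteins, and Hr3 is related to the ROR receptors. Hr3 can activate *ftz-f1*, Eip75B can bind Hr3 and block it, and Ftz-f1 gives tissues the competence to answer the following hormone pulse. In the larval brain the hormone takes part in the maturation of neuroblasts, the timing of optic lobe neurogenesis and the pruning of mushroom body neurons. Because the hormone titre changes steeply in late larvae, these genes also bear on whether brains were of like stage.

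Library totals ran from 4220420 to 31352131 counts. Values per library are given as CPM, counts scaled to library size, after trimmed mean of M-values scaling over the 12 libraries. *Mettl3* itself was counted at 9.05 and 2.25 CPM in the *Mettl3* null input libraries and at 13.4 to 28.5 CPM in the other input libraries. In meRIP it stood at 3.94 and 4.28 CPM in the null and at 14.2 to 18.7 CPM elsewhere, so the null libraries were the lowest of their kind but not at 0. *aPKC* was counted at 423 and 343 CPM in neuroblast-biased input and at 116 to 180 CPM in the other input. The 5 neuroblast markers summed to 2130 and 2190 CPM in neuroblast-biased input against 401 to 466 CPM in the other input, and the 4 neuron markers to 854 and 915 CPM against 2370 to 2940 CPM. The neuroblast-biased input libraries were the least alike pair: the log2 difference between replicates had an SD of 0.93 over genes at or above 10 CPM, against 0.45 in wildtype and 0.61 in *Mettl3* null input and 0.32 to 0.39 in meRIP.

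In fly mRNA the 4 letters AAAC form the core of the sequence at which m6A is placed, mostly in 5′ untranslated regions (UTRs), and the annotated 5′ UTRs of all 7 genes held it. Counted on the transcript strand over the union of each gene's 5′ UTRs, *Eip75B* had 64 matches, *Hr3* 48, *Eip74EF* 45, *ftz-f1* 31, *EcR* 28, *Eip78C* 15 and *usp* 6. Per kb of UTR this was 16.6 in *Eip74EF*, 14.5 in *Eip75B*, 14.1 in *EcR*, 11.5 in *ftz-f1* and *Hr3*, 11.3 in *Eip78C* and 6.51 in *usp*. Of the 13365 genes with an annotated 5′ UTR, 68.7% held AAAC at least once, with a median of 7.41 matches per kb. The UTRs of the 7 genes were long, with a median of 2685 bases against 146 bases over all genes. For 5 genes a match near a start codon is given here, as RefSeq genomic sequence (Release 6, the BDGP6 assembly). It is read on the strand of the transcript, 5′ to 3′, with the motif in capitals. It is the nearest of the matches whose whole window of 28 bases lay inside a stretch of annotated 5′ UTR, and closer matches without such a window were passed over. They show the letters that were counted, and no reads over these windows were examined.
*usp*: acgagcaagaagAAACcggtaggcggag
*ftz-f1*: cacatcacaacgAAACgtacaaaaaata
*Eip74EF*: ggggtattcaggAAACggctacacgctg
*Eip75B*: aaaagtgttgatAAACccccaaccgagc
*Eip78C*: tgaatccttttgAAACgccctctccgga
The windows of 28 bases lie at chrX:2040968-2040995 (*usp*, minus strand), chr3L:18798757-18798784 (*ftz-f1*, minus), chr3L:17598950-17598977 (*Eip74EF*, minus), chr3L:17999135-17999162 (*Eip75B*, minus) and chr3L:21227295-21227322 (*Eip78C*, plus). The match was 9 genomic bases from a start codon in *Eip74EF*, 15 in *Eip75B*, 37 in *ftz-f1*, 66 in *usp* and 162 in *Eip78C*. The window of *Eip74EF* therefore ends with the letters of its annotated start codon, ctg, which lie in the 5′ UTR of another transcript of the gene. A match of letters is not evidence that the base is methylated.

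The whole genes lie on chromosome arm 2R at 6087873 to 6169087 (*EcR*) and 10203995 to 10237348 (*Hr3*), on X at 2038798 to 2042311 (*usp*), and on 3L at 18750607 to 18801309 (*ftz-f1*), 17558672 to 17619325 (*Eip74EF*), 17950953 to 18064696 (*Eip75B*) and 21226609 to 21266503 (*Eip78C*). The exons of *EcR*, *Eip74EF*, *Eip75B* and *Eip78C* overlapped no other annotated gene. Overlap on the same strand covered 82.7% of the exon bases of *Hr3*, 29.4% of those of *ftz-f1* and 8.72% of those of *usp*. For *Hr3* the overlapping genes were *CG12912* and *CG46321*, both at 0 counts in every library, and *lncRNA:CR46322*, with 0 to 28 counts. For *ftz-f1* it was *lncRNA:CR45939*, with 0 to 79 counts. For *usp* they were *Actn*, with 1058 to 7267 counts (182 to 317 CPM), and *CG4313*, with 81 to 480 counts. How reads from shared exons were assigned is not given in the sources used here, so the counts of *Hr3*, *ftz-f1* and *usp* are uncertain in that respect.

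Per length of exon, the 7 genes spanned a wide range in wildtype input. *Eip75B* was highest, at 96.4 and 94.8 CPM per kb. *EcR*, at 34.2 and 33.6 CPM per kb, and *Eip74EF*, at 34.7 and 32.8 CPM per kb, could not be ordered, because their libraries overlapped. *usp* followed at 18.2 and 19.7 CPM per kb. *Eip78C*, at 3.10 and 6.78 CPM per kb, and *ftz-f1*, at 3.83 and 2.35 CPM per kb, again overlapped, and *Hr3* was lowest at 0.605 and 0.437 CPM per kb. These lengths include exon bases shared with other genes, 82.7% of those of *Hr3* and 29.4% of those of *ftz-f1*. The places of *Hr3* and *ftz-f1* in the order are uncertain in that respect. The order of the group means was different in neuroblast-biased input. *Eip75B* still stood first at 37.2 and 42.7 CPM per kb, but *EcR* (19.3 and 23.6) now overlapped with *usp* (21.3 and 18.7), and *ftz-f1* (7.36 and 8.89) lay above *Eip74EF* (4.68 and 4.95). *Eip78C* stood at 0.872 CPM per kb in one library and at 0 in the other, and *Hr3* at 0 in both. In *Mettl3* null input the means ran in the wildtype order except that *ftz-f1* (4.86 CPM per kb) lay above *Eip78C* (4.24 CPM per kb).

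**Figure D1:**
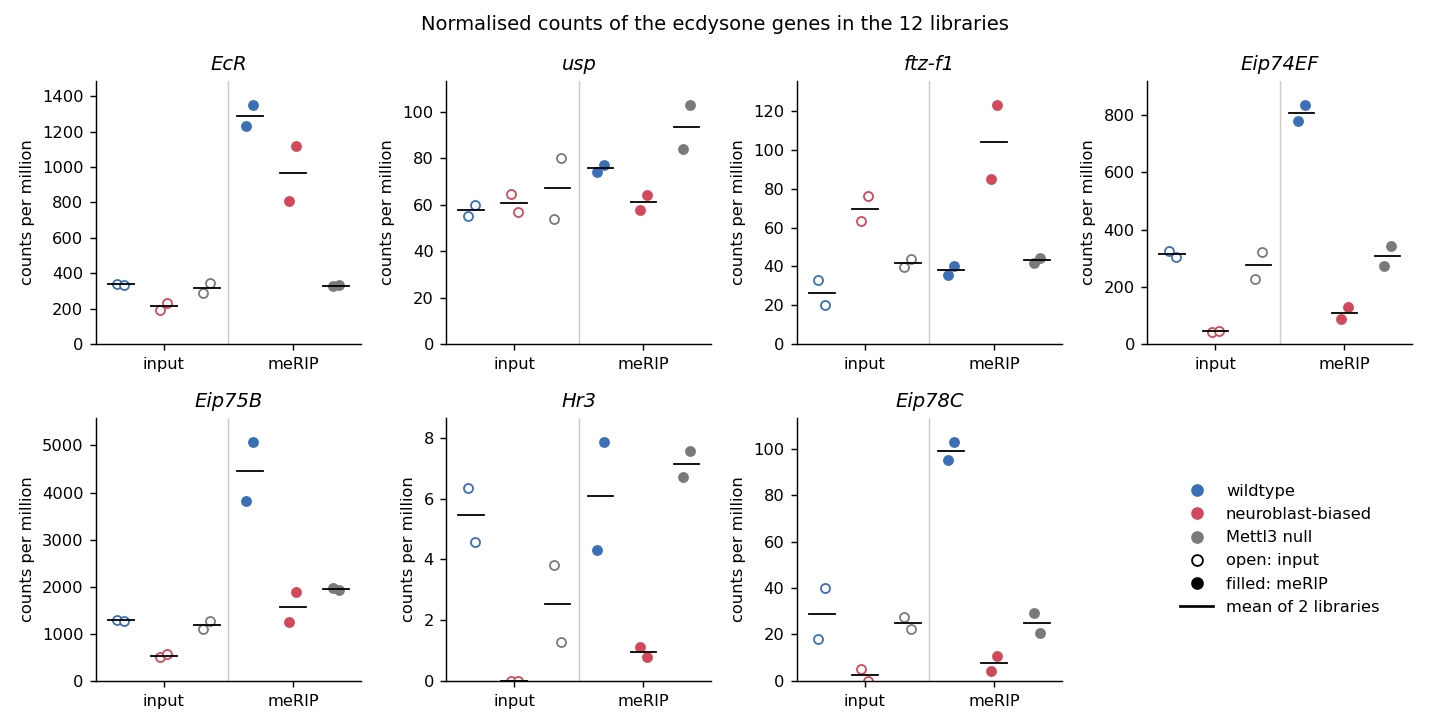
Each panel plots 1 gene. The vertical axis is CPM, open points are input libraries, filled points are meRIP libraries and the bar is the mean of 2 libraries. In neuroblast-biased input, *Eip74EF* (43.7 and 46.2 CPM) and *Eip75B* (500 and 574 CPM) lay below both other genotypes and *ftz-f1* (63.1 and 76.3 CPM) above them, and the meRIP points of *EcR* in *Mettl3* null brains (326 and 333 CPM) were at the level of input.

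To ask whether the hormone response differed between neuroblast-biased and neuron-biased brains, input RNA was compared first. The receptor gene *EcR* and the early genes *Eip74EF* and *Eip75B* were lower in neuroblast-biased brains, *ftz-f1* was higher, and no difference was detectable in *usp*. Of the 7 genes, 1 was higher and 3 were lower (adjusted p under 0.05 in limma-voom over 9423 genes), where 13.4% of all genes tested were called in either direction, 5.28% as higher and 8.09% as lower. Without either wildtype input library 2 of the 7 were called. Over the 5 genes counted in every library the median log2 fold change (log2FC) was -0.60, against -0.17 over all genes. All 7 genes passed the filter on low counts, *Hr3* and *Eip78C* through the groups in which they were present. In bulk RNA, fewer cells of a type and less RNA per cell cannot be told apart.

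*Eip74EF* showed the largest difference among the genes counted in every library. It stood at 324 and 306 CPM in wildtype, 227 and 323 CPM in *Mettl3* null and 43.7 and 46.2 CPM in neuroblast-biased input. Both neuroblast-biased libraries lay far below the other 4. The difference from wildtype was 6.73-fold (log2FC -2.75, SE 0.30, adjusted p = 3.05e-05 in limma-voom, n = 2 libraries per group). This call held in each of the 16 alternatives tried, with a highest adjusted p of 0.00779.

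*Eip75B*, the most abundant of the 7, was counted at 1300 and 1280 CPM in wildtype, 1100 and 1270 CPM in *Mettl3* null and 500 and 574 CPM in neuroblast-biased input. Again the neuroblast-biased libraries did not overlap with either of the others. Its level was 2.31-fold lower than in wildtype (log2FC -1.21, SE 0.11, adjusted p = 7.26e-06 in limma-voom), and this call also held in all 16 alternatives (highest adjusted p 0.0011).

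*EcR* was counted at 340 and 334 CPM in wildtype, 288 and 346 CPM in *Mettl3* null and 192 and 235 CPM in neuroblast-biased input. The neuroblast-biased values were the lowest, but the difference was small, at 1.52-fold (log2FC -0.60, SE 0.17, adjusted p = 0.0283 in limma-voom). The call was lost with upper-quartile scaling and when either wildtype input library or neuroblast-biased input replicate 1 was left out, with a highest adjusted p of 0.294. The other subunit, *usp*, was counted at 55.3 and 59.9 CPM in wildtype, 64.8 and 56.8 CPM in neuroblast-biased and 54.1 and 80.3 CPM in *Mettl3* null input. Its 3 groups overlapped, and the 95% interval of the log2FC between neuroblast-biased and wildtype ran from -0.60 to 0.76.

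*ftz-f1* moved the opposite way. It was counted at 32.8 and 20.1 CPM in wildtype, 39.6 and 43.8 CPM in *Mettl3* null and 63.1 and 76.3 CPM in neuroblast-biased input. The 3 groups did not overlap, with neuroblast-biased brains the highest. The difference between neuroblast-biased and wildtype was 3.10-fold (log2FC 1.63, SE 0.38, adjusted p = 0.0102 in limma-voom). It was not called when wildtype input replicate 1, wildtype input replicate 2 or neuroblast-biased input replicate 2 was left out, with a highest adjusted p of 0.562.

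The nuclear receptor genes *Hr3* and *Eip78C* were close to or at the limit of detection in neuroblast-biased input. *Hr3* had 33 and 52 counts in wildtype, 51 and 17 in *Mettl3* null and 0 in both neuroblast-biased input libraries. In neuroblast-biased meRIP *Hr3* had 29 and 16 counts, 5.71-fold below wildtype meRIP. Among genes at or above 10 CPM in neuroblast-biased input, 28 were at 0 in replicate 1 only and 12 in replicate 2 only. A floor of 3 counts in each neuroblast-biased input library covers counting error only, not such differences between libraries. Against this floor *Hr3* was at least 16.3-fold lower than in wildtype and at least 7.59-fold lower than in *Mettl3* null brains. Neither difference was called (adjusted p = 0.0909 and 0.155 in limma-voom); against wildtype it was called in 3 of the 16 alternatives (DESeq2, no filter, and without *Mettl3* null input replicate 2). *Eip78C* had 95 and 453 counts (18.2 and 39.8 CPM) in wildtype, 369 and 296 counts in *Mettl3* null, and 39 and 0 counts in neuroblast-biased input. The neuroblast-biased libraries were again the lowest, but they disagreed with each other and the difference was not called (adjusted p = 0.0791 in limma-voom).

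**Figure D2:**
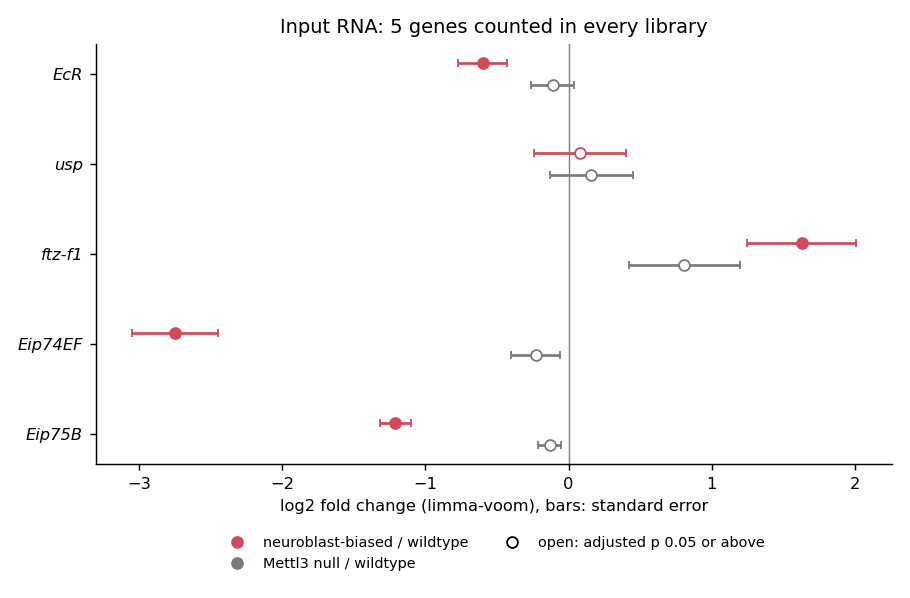
The horizontal axis is the log2 fold change of input RNA relative to wildtype for the 5 genes counted in every library, with the standard error as bars. Filled points have an adjusted p under 0.05. The neuroblast-biased points spread from -2.75 (*Eip74EF*) to 1.63 (*ftz-f1*), and the *Mettl3* null points from -0.23 to 0.81, none of them filled.

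*Mettl3* null brains were then set against wildtype to ask whether loss of the methyltransferase was accompanied by a different level of these transcripts. None of the 7 genes was called, where 0.255% of all genes were called, 24 of 9423 in limma-voom (0.117% as higher and 0.138% as lower). No gene of the 7 had an unadjusted p under 0.05, and edgeR and DESeq2 called 0 of them as well. The median log2FC of the 7 was -0.13, against -0.05 over all genes. The 95% intervals of the log2FC were narrow for *Eip75B* (-0.32 to 0.05), *EcR* (-0.42 to 0.20) and *Eip74EF* (-0.58 to 0.13), so that a difference of the size seen for the early genes *Eip75B* and *Eip74EF* in neuroblast-biased brains lay outside them. They were wider for *usp* (-0.47 to 0.78), *Eip78C* (-1.41 to 0.67) and *Hr3* (-4.20 to 1.78). For *ftz-f1*, higher in both null than in both wildtype libraries, the log2FC was 0.81 with an interval of -0.02 to 1.65 (adjusted p = 0.795 in limma-voom), so its level in the null is not settled by these libraries. As a check of stage, these 7 genes alone showed no difference between wildtype and *Mettl3* null input beyond the stated intervals. In contrast, 4 of them differed between neuroblast-biased and wildtype input. For the latter, a difference in stage and a difference in the mixture of cells cannot be told apart in this design. Outside the 7, the early gene *br* was called as lower in *Mettl3* null than in wildtype input (2790 and 2590 against 3640 and 3260 CPM). It was 1 of 10 further hormone-responsive transcription factors described below, of which 9 were not called. Of 10 late and secondary ecdysone genes tested, 0 were called, but the libraries of several did not overlap. Wildtype against null input was 35.7 and 38.3 against 2.39 and 0 CPM for *Eig71Ee* and 20.5 and 18.1 against 3.96 and 0 CPM for *ImpE2*. In the other direction, it was 277 and 266 against 312 and 379 CPM for *ImpE1*. Salivary gland markers, also lower in the null, are given below. A difference in stage between these genotypes was not tested.

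Compared with *Mettl3* null input, neuroblast-biased input had lower *Eip74EF* (log2FC -2.52, SE 0.30, adjusted p = 4.34e-05 in limma-voom), *Eip75B* (-1.07, SE 0.11, adjusted p = 8.45e-06) and *EcR* (-0.49, SE 0.16, adjusted p = 0.0469). These were 3 genes called of 7, all lower, where 17.2% of all genes were called, 7.90% as higher and 9.26% as lower. The 2 comparisons share the neuroblast-biased libraries. The *EcR* call was the least stable, lost in 9 of 16 alternatives with a highest adjusted p of 0.197. *ftz-f1* had a log2FC of 0.82 (SE 0.28, adjusted p = 0.0628) and *usp* of -0.07 (SE 0.28, adjusted p = 0.892).

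The meRIP libraries, in which a transcript is recovered by the antibody, were compared to see which of the genes gave a signal that depended on *Mettl3*. *EcR*, *Eip78C*, *Eip74EF* and *Eip75B* were recovered more from wildtype than from *Mettl3* null RNA, whereas *usp*, *ftz-f1* and *Hr3* were not called. These 4 of 7 genes, all higher, compare with 22.7% of 9493 genes called in limma-voom, 16.6% as higher and 6.11% as lower. The median log2FC of the 7 was 1.25, against -0.05 over all genes. Of the genes called, 73.1% were higher in wildtype, a share that was 53.1% with upper-quartile scaling and 23.2% with library size alone, where the median of all genes moved by -0.58. Relative to that median the 4 genes were higher under every scaling tried.

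*EcR* was counted at 1230 and 1350 CPM in wildtype meRIP, 807 and 1120 CPM in neuroblast-biased meRIP and 326 and 333 CPM in *Mettl3* null meRIP. The null libraries lay well below the other 4. The log2FC of wildtype over null was 2.03 (SE 0.23, adjusted p = 8.64e-08 in limma-voom). *Eip78C*, at 95.1 and 103 CPM in wildtype against 29.1 and 20.5 CPM in null meRIP, had a log2FC of 2.04 (SE 0.27, adjusted p = 1.07e-06). *Eip74EF*, at 780 and 835 CPM in wildtype against 272 and 342 CPM in null meRIP, had a log2FC of 1.46 (SE 0.23, adjusted p = 1.97e-05). *Eip75B*, at 3830 and 5080 CPM in wildtype against 1970 and 1920 CPM in null meRIP, had one of 1.25 (SE 0.26, adjusted p = 0.000616). In none of these 4 genes did wildtype and null libraries overlap, and the 4 calls held in all 16 alternatives.

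The other 3 genes behaved differently. *usp* was counted at 74.3 and 77.0 CPM in wildtype against 83.9 and 103 CPM in null meRIP, and *ftz-f1* at 35.7 and 40.4 CPM against 41.9 and 44.3 CPM. For both, the null libraries were the higher ones and the differences were not called (adjusted p = 0.498 and 0.788 in limma-voom). *Hr3* had 64 and 87 counts in wildtype and 114 and 60 in null meRIP, and its groups overlapped at 4.29 and 7.87 against 6.70 and 7.55 CPM.

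In neuroblast-biased against *Mettl3* null meRIP, *EcR* (log2FC 1.60, SE 0.23, adjusted p = 3.15e-06 in limma-voom) and *ftz-f1* (1.33, SE 0.23, adjusted p = 3.86e-05) were higher. *Hr3* (-2.76, SE 0.59, adjusted p = 0.000477), *Eip78C* (-1.84, SE 0.32, adjusted p = 4.8e-05), *Eip74EF* (-1.44, SE 0.22, adjusted p = 9.14e-06) and *usp* (-0.53, SE 0.21, adjusted p = 0.0492) were lower. The call of *usp* was lost in 6 of 16 alternatives (highest adjusted p 0.204). These 6 of 7 genes compare with 38.8% of all genes called, 20.6% as higher and 18.2% as lower. Of these calls 53.1% were higher, or 20.2% with library size alone (median shifted by -0.54). Against wildtype meRIP, where 43.5% of all genes were called, 19.7% as higher and 23.8% as lower, *ftz-f1* was higher (85.0 and 123 CPM, log2FC 1.44, SE 0.23, adjusted p = 9.4e-06) and 4 genes were lower. *Eip74EF* fell to 89.6 and 130 CPM (log2FC -2.90, SE 0.23, adjusted p = 2.41e-10), *Eip75B* to 1260 and 1880 CPM (-1.52, SE 0.27, adjusted p = 4.01e-05) and *Eip78C* to 4.45 and 10.6 CPM (-3.87, SE 0.30, adjusted p = 1.49e-10). *Hr3* had 29 and 16 counts in neuroblast-biased meRIP (-2.51, SE 0.59, adjusted p = 0.00114). The 4 that fell were those with the lowest neuroblast-biased levels relative to wildtype in input.

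The amount of transcript was taken out by comparing the meRIP to input ratio between genotypes, termed enrichment when set against *Mettl3* null brains. *EcR* was the gene with the clearest enrichment, in both genotypes. Its ratio of mean CPM was 3.83 in wildtype and 4.52 in neuroblast-biased brains, but 1.04 in the null, where the median ratio over all genes with at least 1 CPM of input was 0.883, 0.987 and 0.957. The enrichment had a log2FC of 1.87 in wildtype (SE 0.27, adjusted p = 0.00132 in limma-voom over all 12 libraries) and of 2.09 in neuroblast-biased brains (SE 0.27, adjusted p = 0.00243). The neuroblast-biased call held in all 22 alternatives (highest adjusted p 0.0357), and the wildtype call was lost only without wildtype input replicate 2 (adjusted p = 0.0603), where 1 gene in the whole table was still called.

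In wildtype brains 3 of the 7 genes were enriched, where 5.64% of 9918 genes were called, 5.22% as higher and 0.413% as lower. When libraries were scaled by size alone the median of all genes moved by -0.51, the higher share of called genes went from 92.7% to 53.4%, and *EcR* was the 1 gene of the 7 called. Beside *EcR* these were *Eip74EF* (log2FC 1.21, SE 0.29, adjusted p = 0.0213 in limma-voom) and *Eip75B* (1.06, SE 0.27, adjusted p = 0.0285). The meRIP to input ratios of *Eip74EF* were 2.56 in wildtype, 2.45 in neuroblast-biased and 1.12 in null libraries, and those of *Eip75B* were 3.46, 2.92 and 1.64. Both calls depended on single libraries and on scaling. *Eip74EF* was not called in 7 of 22 alternatives and *Eip75B* in 9 of 22, with highest adjusted p values of 0.194 and 0.207, both without wildtype input replicate 2. Of the 7 genes 0 were called without that library, and 1 without wildtype input replicate 1, *Mettl3* null input replicate 2 or *Mettl3* null meRIP replicate 1. *Eip78C* had ratios of 3.41, 2.93 and 0.995 and a log2FC of 1.60 that was not called (SE 0.61, adjusted p = 0.171 in limma-voom). Its input counts were 95 and 453 in the wildtype libraries and 39 and 0 in the neuroblast-biased libraries, so the ratio of 2.93 rests on a single library with counts.

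In neuroblast-biased brains 1 of the 7 genes, *EcR*, was enriched, where 4.70% of all genes were called and 4.46% as higher, with 0.242% as lower. The higher share of called genes was 94.8%, or 73.1% with library size alone (median shifted by -0.45). *Eip74EF* (log2FC 1.09, SE 0.36, adjusted p = 0.102 in limma-voom) and *Eip75B* (0.79, SE 0.28, adjusted p = 0.127) were not called, though 3 of the 7 genes were called without neuroblast-biased meRIP replicate 1, and no fold is given for *Hr3* or *Eip78C*, which had 0 counts in 1 or both input libraries. *usp* had ratios of 1.31, 1.0 and 1.39 and *ftz-f1* of 1.44, 1.49 and 1.03. Neither was called in wildtype, with 95% intervals of the log2FC from -0.82 to 0.64 for *usp* and from -0.34 to 1.64 for *ftz-f1*, so an enrichment as large as that of *EcR* (1.87) lay outside the interval of *usp* and beyond the upper bound for *ftz-f1*.

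**Figure D3:**
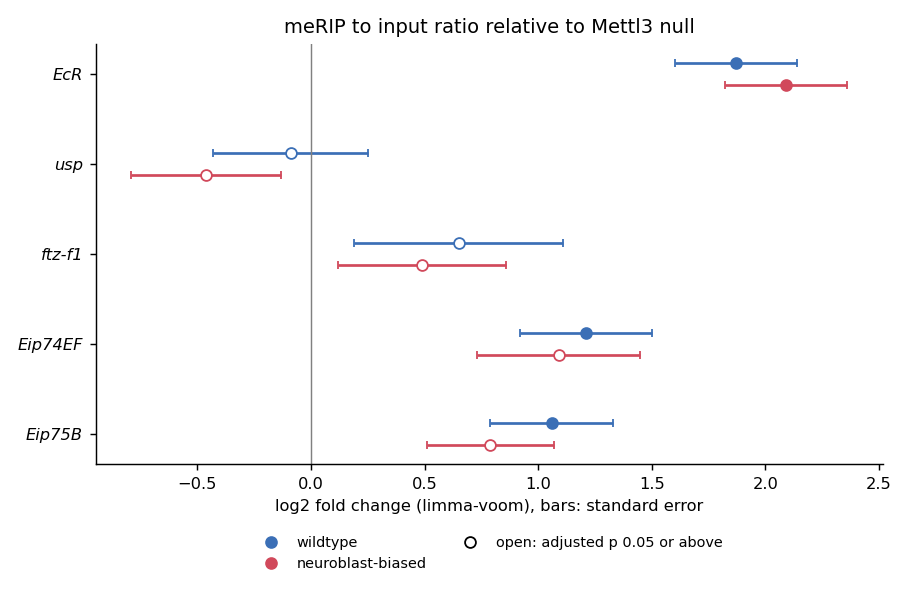
The horizontal axis is the log2 fold change of the meRIP to input ratio relative to *Mettl3* null brains, with the standard error as bars, for the 5 genes counted in every library. Filled points have an adjusted p under 0.05. *EcR* lies at 1.87 and 2.09, *Eip74EF* at 1.21 and 1.09 and *Eip75B* at 1.06 and 0.79 in wildtype and neuroblast-biased brains, and *usp* lies at -0.09 and -0.46.

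The AAAC matches were set beside these calls over all genes, as a description. Of the 988 genes tested with 10 or more AAAC in the 5′ UTR, 29.5% were enriched in wildtype, against 3.57% of 5932 genes with 1 to 9 and 0.0495% of 2019 genes with none. In neuroblast-biased brains the shares were 21.6%, 3.47% and 0.446%. UTR length was not separated from the number of matches, as the median UTR was 1315.5, 262 and 87 bases long in these 3 classes. *usp*, with 6 matches, belongs to the middle class, and the other 6 genes to the first, including *ftz-f1*, *Hr3* and *Eip78C*, which were not called.

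The difference in the meRIP to input ratio between neuroblast-biased and wildtype brains, termed stoichiometry, was called for none of the 7 genes. In this comparison limma-voom called 0 of 9918 genes, with 674 at an unadjusted p under 0.05, and edgeR called 2 and DESeq2 40. The log2FC was 0.21 for *EcR* (95% interval -0.35 to 0.78), -0.11 for *Eip74EF* (-0.87 to 0.64) and -0.26 for *Eip75B* (-0.85 to 0.32). It was -0.16 for *ftz-f1* (-1.08 to 0.77) and -0.36 for *usp* (-1.11 to 0.39), and for *Eip78C* the interval was -1.39 to 5.93. Of the 7, *Hr3*, at 0 in neuroblast-biased input, had an unadjusted p under 0.05 (0.0373, adjusted p = 0.692). For *Eip74EF* and *Eip75B*, the lower meRIP recovery in neuroblast-biased brains (log2FC -2.90 and -1.52) thus stood beside input differences of -2.75 and -1.21.

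The wider pathway was read from lists of genes chosen with earlier results of these data known. Among 10 further hormone-responsive transcription factors, 3 fell in neuroblast-biased input relative to wildtype and none rose, with a median log2FC of -0.64. Over all genes 5.28% rose and 8.09% fell, with a median of -0.17, and these shares also stand behind the counts of the lists that follow. The 3 were *Eip93F*, which marks the late phase of the response (log2FC -2.31, SE 0.22, adjusted p = 1.06e-05 in limma-voom), *Hr4*, a nuclear receptor gene (-1.10, SE 0.23, adjusted p = 0.00548), and *br*, the early gene of the Broad zinc finger proteins (-0.87, SE 0.07, adjusted p = 2.53e-06). *br* was counted at 3640 and 3260 CPM in wildtype, 2790 and 2590 CPM in *Mettl3* null and 1800 and 1780 CPM in neuroblast-biased input. It was the 1 gene of this list that differed between *Mettl3* null and wildtype input (log2FC -0.35, SE 0.06, adjusted p = 0.0171). The 3 calls held without either neuroblast-biased input library. In the enrichment comparison 4 of the 10, *Kr-h1*, *vri*, *Hr4* and *br*, were higher in both wildtype and neuroblast-biased brains, where 5.22% and 4.46% of all genes were higher. Without wildtype input replicate 2 the wildtype comparison called 1 gene in the whole table. *Kr-h1*, a zinc finger gene that also answers juvenile hormone, had log2FC values of 3.79 (SE 0.44) and 3.58 (SE 0.46), beside 1.87 and 2.09 for *EcR*.

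Of 8 genes for coregulators of EcR, 2 rose in neuroblast-biased input and none fell, with a median log2FC of 0.10 beside -0.17 over all genes. *tai*, which encodes a coactivator of the EcR and Usp complex, rose from 225 and 209 to 410 and 432 CPM (log2FC 1.02, SE 0.15, adjusted p = 0.000309 in limma-voom), and *Iswi*, a chromatin remodelling ATPase gene, had a log2FC of 0.68 (SE 0.16, adjusted p = 0.01). *Oatp74D*, which encodes the ecdysone importer, was the 1 gene called of 2 tested for hormone uptake, activation and breakdown, at 106 and 125 CPM in wildtype against 196 and 229 CPM in neuroblast-biased input (0.90, SE 0.22, adjusted p = 0.0135). Without neuroblast-biased input replicate 2 the call was lost (adjusted p = 0.104). The activating enzyme gene *shd* was at 3.65 CPM or less in every library and was not tested in input.

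Among late and secondary ecdysone genes 10 of 23 were tested, and *ImpE1* fell (277 and 266 against 38.8 and 29.4 CPM, log2FC -2.99, SE 0.31, adjusted p = 1.72e-05 in limma-voom) while *ImpL2*, a secreted binding protein of insulin-like peptides, rose (42.2 and 40.3 against 453 and 503 CPM, 3.59, SE 0.27, adjusted p = 9.07e-07). *Eig71Ee*, known from salivary glands, was at 35.7 and 38.3 CPM in wildtype and at 0 in both neuroblast-biased input libraries, and its call was lost without either of these. Of 8 genes of EcR-dependent neuron remodelling, 4 fell and none rose, with a median log2FC of -0.69, where 8.09% of all genes fell. *Sox14*, a transcription factor gene of mushroom body pruning, was counted at 111 and 108 CPM in wildtype against 19.7 and 5.90 CPM in neuroblast-biased input (-3.51, SE 0.60, adjusted p = 0.00107). Its log2FC was -4.15 without neuroblast-biased input replicate 1 and -2.43 without replicate 2 (adjusted p = 0.0105 and 0.0231), and 1 and 3 of the 8 fell in these fits. Of 6 temporal genes tied to ecdysone in neuroblasts, *Imp* (3.0, SE 0.13, adjusted p = 5.9e-09) and *svp* (2.53, SE 0.28, adjusted p = 3.36e-05), both of young neuroblasts, rose, and *br* and *Eip93F* fell. The other 2, *chinmo* (0.27, SE 0.12, adjusted p = 0.17 in limma-voom) and *Syp* (-0.24, SE 0.10, adjusted p = 0.129), were not called. Of 3 genes of juvenile hormone reception, *gce*, which encodes a receptor of that hormone, fell (78.9 and 73.4 against 9.86 and 22.8 CPM, -2.15, SE 0.48, adjusted p = 0.00784) and none rose. In *Mettl3* null against wildtype input no gene of these lists but *br* was called.

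**Figure D4:**
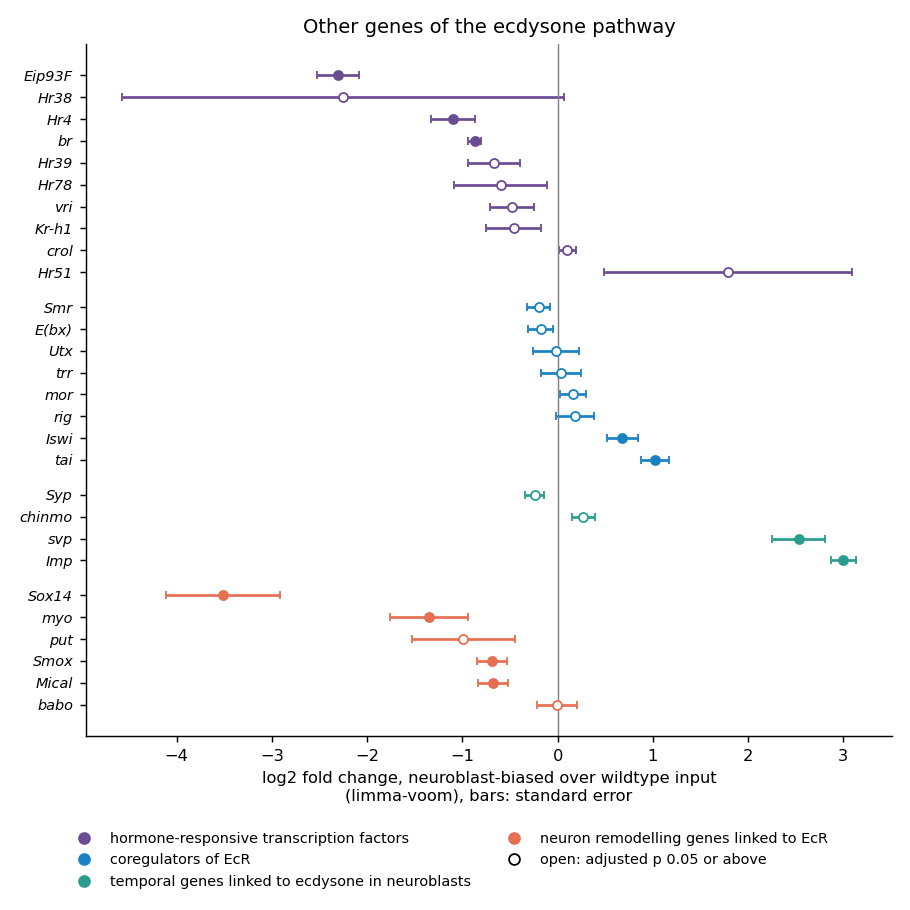
The horizontal axis is the log2 fold change of input RNA in neuroblast-biased over wildtype brains, with the standard error as bars. Filled points have an adjusted p under 0.05. Among the transcription factors the filled points are *Eip93F* (-2.31), *Hr4* (-1.10) and *br* (-0.87), and among the coregulators *tai* (1.02) and *Iswi* (0.68).

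Markers of other tissues and of the main brain cell types were counted in the same libraries. The 6 salivary gland markers, all glue protein genes, summed to 179 and 173 CPM in wildtype input, to 7.78 and 17.1 CPM in *Mettl3* null input and to 0 in both neuroblast-biased input libraries. In meRIP the sums were 515 and 585, 22.8 and 38.9, and 2.86 and 3.05 CPM. All 6 were lower in neuroblast-biased than in wildtype input, and 0 of 6 when either neuroblast-biased library was left out. Between *Mettl3* null and wildtype input 0 of 6 were called. In meRIP all 5 that were tested were higher in wildtype than in the null (median log2FC 4.65), where 16.6% of all genes were higher. With input taken into account, wildtype enrichment was called for 0 of the 6 (median log2FC -0.14). Of the 7 ring gland markers 1 was higher and 1 lower between neuroblast-biased and wildtype input. The higher one was the entry matched to *nvd* (FBgn0263594), which made up most of the sum over this list. It stood at 384 and 421 CPM in wildtype, 808 and 686 CPM in neuroblast-biased and 367 and 460 CPM in *Mettl3* null input. Symbols not found directly were matched through synonyms, and whether this entry is the ring gland gene was not checked. Its rise is therefore not read as one of a ring gland marker. The other 6 summed to 196 and 194 CPM in wildtype, 19.2 and 63.5 CPM in neuroblast-biased and 68.4 and 58.9 CPM in *Mettl3* null input, and of these *phtm*, an enzyme gene of ecdysone synthesis, was lower (65.1 and 74.3 against 8.68 and 18.9 CPM). None of the 7 was called between *Mettl3* null and wildtype input, and 3 of the 7 were higher in wildtype than in null meRIP. In wildtype enrichment 0 of the 7 were called (median log2FC -0.16). The 6 fat body markers summed to 68.0 and 86.0, 30.2 and 15.1, and 85.7 and 20.1 CPM in input, with none called in input. The 3 hemocyte markers summed to 72.5 to 113 CPM and the 4 muscle markers to 11.3 to 32.1 CPM over the input libraries. None of them was called between neuroblast-biased and wildtype input. The 4 glial markers summed to 381 and 388 CPM in wildtype against 217 and 204 CPM in neuroblast-biased input, with 3 of 4 lower. The part of these tissues, and of the shift from neurons to neuroblasts, in the levels of the 7 genes was not tested.

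Likeness of pattern was read as Pearson's r of log2(CPM + 1) over the 12 libraries. Among all genes averaging 10 CPM or more, the one most like *EcR* was *KrT95D* (r = 0.992), and the one most like *Eip74EF* was *Gycbeta100B* (0.993). For *Eip75B* it was *trn* (0.993), for *Eip78C* *eys* (0.979), for *Hr3* *CG32815* (0.957) and for *usp* *ens* (0.853). These values describe libraries that share genotype and library kind within each of 6 groups and are not independent points.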

How the data were processed

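Input and meRIP RNA of brain lobes from 3 genotypes was compared, with 2 libraries per group as the labels number them. The authors deposited whole-number counts per gene, not normalised, for 17807 genes in 12 libraries. The methods describe trimming by Trimmomatic and alignment by STAR against BDGP6 with Ensembl genes. featureCounts is named for meRIP and kallisto for input RNA, yet both kinds are whole numbers in 1 table, so which tool counted the input columns is uncertain. Versions, strandedness and removal of duplicate reads are not given in the sources used here. Reads over exons shared with another gene can have been lost or assigned to either.

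Every gene of the deposited counts that passed the filter was tested with limma-voom, the method the study names (limma 3.58.1, edgeR 4.0.16, R 4.3.3): filterByExpr with a minimum count of 10, TMM factors, group means, two-sided moderated tests, and Benjamini-Hochberg adjustment within each of 9 comparisons. The 6 input libraries, the 6 meRIP libraries and all 12 libraries (ratios, as interaction contrasts) were fitted separately. Intervals are 95% from the moderated fit. Values per library are CPM, which scale the deposited counts to library size and TMM factors, and CPM per kb divides by the union of exons. Replicates are called biological in the methods; how they were cultured is not given, so p-values measure the spread between these libraries. Without molecular identifiers, floors and counts cover counting error only. The tests were checked on simulated data, and the outcome of that check is not reported here.

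Coordinates and exons are from Ensembl release 115 (BDGP6.54), in which 17710 of the 17807 identifiers were found, and sequences from the RefSeq genome of the same assembly, in which 99.8% of 30618 annotated start codons read ATG. AAAC was counted on the transcript strand only, self-overlap being impossible for these letters.

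All 7 genes were named in every comparison, and of each list the called genes with the largest changes. The genes, the lists and the tests were chosen with earlier results of these data known. The alternatives tried comprised the quasi-likelihood test of edgeR, DESeq2 1.42.0, voom weights per sample, other scaling (library size alone, upper quartiles, or relative log expression, RLE), no filter, a mean of at least 10 counts, only the groups compared, the replicate number as a block and leaving out each library. The calls of the pathway lists without either neuroblast-biased input library were added after the data were seen. The gene most like *ftz-f1* in pattern is not reported here.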

Additional observations from a re-analysis of the deposited data

Results flagged for a closer look

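The recovery of *Eip74EF* and *Eip78C* by the antibody, set against *Mettl3* null brains, went in opposite directions in the other genotypes. *Eip74EF* was higher than in the null in wildtype meRIP (log2FC 1.46) and lower in neuroblast-biased meRIP (-1.44), a difference of -2.90 (SE 0.23, adjusted p = 2.41e-10 in limma-voom). *Eip78C* was higher in wildtype (2.04) and lower in neuroblast-biased meRIP (-1.84), a difference of -3.87 (SE 0.30, adjusted p = 1.49e-10). The null libraries cancel in these differences, so they are the same test as neuroblast-biased over wildtype meRIP in the report and no further evidence. In each case both wildtype libraries lay above and both neuroblast-biased libraries below the null libraries. The input of the same brains was 227 and 323 CPM of *Eip74EF* in the null and 43.7 and 46.2 CPM in neuroblast-biased brains, and for *Eip78C* 369 and 296 counts against 39 and 0.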

How the results depend on the processing

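Of 26 calls among 63 tests of the 7 genes, no call changed direction in any alternative. Over all 1134 alternative values, 1054 kept their direction and their side of the threshold, 39 were no longer called, 17 became called and 24, none of them a call, changed sign. The number of the 7 genes called between neuroblast-biased and *Mettl3* null input was 3, and 5 with DESeq2. For wildtype enrichment it was 3, and 1 with edgeR or with library size alone. For neuroblast-biased enrichment it was 1, and 2 with DESeq2. Leaving out single libraries, the number ran from 2 to 5 for neuroblast-biased over wildtype input, from 0 to 3 for wildtype enrichment and from 1 to 3 for neuroblast-biased enrichment. Counts over all genes moved most with DESeq2 (1260 to 2545 for neuroblast-biased over wildtype input, 24 to 143 for *Mettl3* null over wildtype input, 1617 to 2669 for neuroblast-biased over *Mettl3* null input, 559 to 885 and 466 to 870 for enrichment), library size alone (2156 to 3858 for wildtype over null meRIP, 466 to 275 for neuroblast-biased enrichment) and only the groups compared (24 to 43, 559 to 959 and 466 to 155), and with edgeR (24 to 4), sample weights (24 to 77, 466 to 178) and a mean of at least 10 counts (24 to 44). Without single libraries they ran from 485 to 1328, 9 to 30 and 931 to 1285 for these 3 input comparisons, from 1227 to 2494 for wildtype over null meRIP, from 1 to 795 and 65 to 975 for wildtype and neuroblast-biased enrichment, and from 2485 to 3538 against 3682 and from 2734 to 4463 against 4128 for the meRIP of neuroblast-biased brains over null and wildtype. In stoichiometry 10 genes were called with no filter.

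The replicate numbers gave no evidence of pairing between input groups (correlation of replicate differences 0.01 to 0.02) or between input and meRIP of a genotype (-0.04 to 0.09), and 0.16 to 0.30 among meRIP groups. The labels do not tie the numbers to a shared batch. With the replicate block, 3 genes (*EcR*, *Eip74EF* and *Eip75B*) were called for neuroblast-biased enrichment, *EcR* was called as lower in neuroblast-biased than in wildtype meRIP, and the log2FC of *Eip78C* between *Mettl3* null and wildtype input was 0.16. The block changed no other call.

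Signs changed for *usp* between neuroblast-biased and *Mettl3* null input (0.02 with upper quartiles) and in wildtype enrichment (0.01 with DESeq2, 0.00 with RLE), and in stoichiometry for *ftz-f1* (0.04 with edgeR) and *Eip78C* (-0.13 with edgeR, -0.41 with DESeq2). Over the libraries left out, values that crossed 0 ran from -0.23 to 0.00 (*EcR*), -0.12 to 0.42 (*usp*), -0.47 to 0.01 (*Eip74EF*) and -0.71 to 0.42 (*Eip78C*) for *Mettl3* null over wildtype input, and from -0.34 to 0.20 for *usp* between neuroblast-biased and *Mettl3* null input. In meRIP they ran from -0.63 to 0.12 (*Hr3*, wildtype over null) and -0.53 to 0.01 (*Eip75B*, neuroblast-biased over null), and in wildtype enrichment from -0.38 to 0.19 (*usp*). In stoichiometry they ran from -0.07 to 0.43 (*EcR*), -0.47 to 0.34 (*ftz-f1*), -0.42 to 0.14 (*Eip74EF*), -0.59 to 0.01 (*Eip75B*) and -1.36 to 5.46 (*Eip78C*). The cause of these changes was not tested.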
